A study of Mus musculus with 28 samples.

Results

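Spint1, Apobec3, Gatm, Eps8l1, Slc15a2, Hps6, Man1a and Id2 are 8 of the 14617 genes measured in macrophages sorted from mouse brains. They were chosen by gene symbol, on measured values: each had a genotype difference in marrow-derived (GFP-negative) cells of the brain parenchyma, of the leptomeninges or of both. The choice states no threshold. Genotype differences in marrow-derived cells are therefore given as a description with no test, and tests are given only for comparisons that do not contrast the donor genotypes. Donor cells of 1 genotype alone are likewise described with no test.

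The samples were 28 MARS-seq libraries, a 3′ RNA-seq method for few cells in which each captured mRNA carries a random barcode, so that molecules (UMIs) and not reads are counted. All recipients were Cx3cr1 gfp/+ mice that had been lethally irradiated and analysed 16 weeks after bone marrow transplantation. Mutant chimeras received Vav-Cre: hDNMT3A fl/fl marrow, and control chimeras received hDNMT3A fl/fl marrow without Cre, so donor cells of both genotypes carried the floxed hDNMT3A allele. Vav-Cre recombines in blood-forming cells and so acts in all blood lineages of the donor, and not in the GFP-positive host cells. The mutation is not named in the labels. Sorted cells were GFP-negative (donor) and GFP-positive (host) microglia of the parenchyma and GFP-negative and GFP-positive leptomeningeal macrophages. Each group had 4 libraries per genotype, except GFP-positive leptomeningeal macrophages with 2. Actinomycin D was present during cell handling to limit new transcription. Since no label ties a library to an animal of its own, the spread behind each p-value is that between libraries, which may be technical.

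DNMT3A methylates cytosine, mainly in CG dinucleotides, and is often mutated in clonal expansions of blood-forming cells. Microglia seed the brain in the embryo and renew themselves, whereas marrow-derived macrophages enter the brain after irradiation and take up a related but distinct programme. The 8 genes serve unrelated processes. Spint1 encodes an inhibitor of serine proteases that sits in the cell membrane, Eps8l1 a relative of the actin regulator Eps8, and Slc15a2 a transporter that takes up dipeptides and tripeptides with protons. Apobec3 is a cytidine deaminase that restricts retroviruses, and Gatm makes guanidinoacetate, the precursor of creatine. Hps6 is a subunit of the BLOC-2 complex of lysosome-related organelles, Man1a trims mannose from N-glycans in the Golgi, and Id2 blocks basic helix-loop-helix transcription factors by dimerising with them.

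Library totals ran from 479077 to 3066506 UMIs and were lowest in GFP-negative microglia, at 487382 to 1013608 in mutant and 479077 to 692405 in control chimeras. All 8 genes passed the low-count filter, as did 12327 genes in all. Sall1, a transcription factor that defines microglia, had 8.21 to 21.3 CPM (a gene's UMIs scaled to a common library total) in mutant and 11.6 to 33.4 CPM in control GFP-negative microglia, against 298 to 361 and 325 to 361 CPM in mutant and control GFP-positive microglia, so the donor cells of the parenchyma held little of this defining marker. Mouse Dnmt3a, the endogenous gene, had 67.5 ± 7.41 CPM in mutant and 70.8 ± 16.9 CPM in control GFP-negative microglia (SD, n = 4 each). Its log2 fold change was -0.088 ± 0.18 (SE) there and 0.039 ± 0.16 in GFP-negative leptomeningeal macrophages (edgeR adjusted p = 0.905 and 1). These counts do not check the hDNMT3A allele, whose transcript was not analysed here. In sorted bulk cells, fewer cells of a type and less RNA per cell cannot be told apart.

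The windows upstream of the start sites differ in their content of CG dinucleotides, the sites that DNMT3A can methylate. They are shown for 4 genes whose mutant and control GFP-negative libraries did not overlap in either compartment. Spint1, Eps8l1 and Slc15a2 were higher in mutant donor cells, and Gatm was lower in them. Apobec3, lower in mutant donor cells with no overlap in either compartment, is not shown. Each sequence is the 250 bases before the most upstream RefSeq start (GRCm38.p6, the mm10 build), 5′ to 3′ on the gene's strand, with CG in capitals. The windows are chr2:119237110-119237359, plus strand for Spint1, chr7:4460447-4460696, plus strand for Eps8l1, chr16:36784963-36785212, minus strand for Slc15a2, and chr2:122611278-122611527, minus strand for Gatm.
Spint1: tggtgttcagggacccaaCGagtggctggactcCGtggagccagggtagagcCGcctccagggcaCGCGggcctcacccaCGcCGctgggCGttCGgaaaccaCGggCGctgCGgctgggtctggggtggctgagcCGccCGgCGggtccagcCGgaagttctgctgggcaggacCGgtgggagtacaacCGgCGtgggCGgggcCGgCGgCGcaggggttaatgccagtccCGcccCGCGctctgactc
Eps8l1: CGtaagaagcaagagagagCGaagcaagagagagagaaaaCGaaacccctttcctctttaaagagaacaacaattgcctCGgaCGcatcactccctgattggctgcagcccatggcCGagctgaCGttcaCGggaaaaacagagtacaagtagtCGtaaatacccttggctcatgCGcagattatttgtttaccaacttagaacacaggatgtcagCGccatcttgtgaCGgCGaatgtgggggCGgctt
Slc15a2: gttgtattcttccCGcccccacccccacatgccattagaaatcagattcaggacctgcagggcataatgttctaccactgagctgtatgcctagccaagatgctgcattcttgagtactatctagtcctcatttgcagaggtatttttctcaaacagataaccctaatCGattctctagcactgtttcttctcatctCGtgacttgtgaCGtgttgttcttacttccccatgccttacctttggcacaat
Gatm: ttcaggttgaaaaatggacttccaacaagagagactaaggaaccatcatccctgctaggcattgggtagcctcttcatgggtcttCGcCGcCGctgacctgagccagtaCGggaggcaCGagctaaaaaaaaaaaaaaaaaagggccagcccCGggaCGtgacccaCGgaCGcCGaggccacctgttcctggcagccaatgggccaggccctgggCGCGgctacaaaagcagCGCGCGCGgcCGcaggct
The Spint1 window held 26 CG, that of Eps8l1 14, that of Slc15a2 4 and that of Gatm 17. Over 32851 mouse promoter windows of this length the median was 6 and the quartiles were 2 and 16. Genes higher in mutant donor cells thus had windows both above the upper quartile and below the median. Man1a had 31, Hps6 20, Id2 18 and Apobec3 12 at the most upstream start, and the windows of Apobec3, Man1a and Id2 lie inside the annotated genes. GAGGAA, the core of the site bound by the macrophage factor PU.1, was searched on both strands and occurred once in the Eps8l1 window and in none of the windows of the other 7 genes at these starts, against 23.3% of all windows. Eps8l1 has 3 RefSeq starts and Apobec3 has 2. The windows of the further starts held 7 and 3 CG for Eps8l1 and 3 CG for Apobec3. GAGGAA occurred once in the third Eps8l1 window and once in the second Apobec3 window. Methylation and binding were not measured.

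Spint1 was the member with the highest fold in mutant GFP-negative cells. In GFP-negative microglia it had 83.9, 73.6, 50.7 and 78 CPM in mutant chimeras, against 16.7, 7.22, 9.84 and 13.9 CPM in control chimeras. The 4 mutant libraries were all above the 4 control libraries. The log2 fold change was 2.63 ± 0.28 (SE), and leaving out each library of the comparison in turn gave 2.46 to 2.83. In GFP-negative leptomeningeal macrophages Spint1 had 11, 7.35, 10.1 and 12.2 CPM in mutant chimeras, against 3.52, 0.652, 1.39 and 0.369 CPM in control chimeras, again with no overlap. The control values rested on 8, 2, 3 and 1 UMIs. The fold there was 2.89 ± 0.36, and 3.70 without control library 1, the control library with the most Spint1.

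Eps8l1 was likewise higher in mutant donor cells. GFP-negative microglia held 36.5, 26.7, 27.8 and 26.7 CPM in mutant chimeras, against 16.7, 13, 9.84 and 10.4 CPM in control chimeras (8, 9, 6 and 6 UMIs). GFP-negative leptomeningeal macrophages held 16, 17.2, 23.6 and 24.4 CPM in mutant chimeras, against 7.93, 4.24, 4.63 and 5.16 CPM in control chimeras. Mutant libraries were above control libraries in both compartments, with folds of 1.28 ± 0.33 in the parenchyma and 1.94 ± 0.26 in the leptomeninges.

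Slc15a2 rested on few UMIs in control donor microglia. In GFP-negative microglia it had 21.7, 19.2, 26.8 and 14.4 CPM in mutant chimeras (22, 18, 27 and 7 UMIs), against 0, 11.6, 3.28 and 1.73 CPM in control chimeras (0, 8, 2 and 1 UMIs). The 0 of control library 1 allows up to 6.26 CPM, the level of 3 UMIs, and such limits cover counting error only. The fold of 2.19 ± 0.66 moved to 3.56 without control library 2, which held 8 of the 11 control UMIs. In GFP-negative leptomeningeal macrophages Slc15a2 had 23.3, 31.3, 27.4 and 27.9 CPM in mutant chimeras, against 5.28, 3.91, 7.87 and 6.27 CPM in control chimeras. Its fold there was 2.27 ± 0.39, with a smaller SE than in the parenchyma.

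Apobec3 and Gatm were lower in mutant donor cells of both compartments. Apobec3 had 129, 100.3, 150.0 and 109 CPM in mutant GFP-negative microglia, against 242, 160.3, 208 and 220.2 CPM in control ones. In GFP-negative leptomeningeal macrophages it had 98.7, 106, 87 and 91 CPM in mutant chimeras, against 155, 150.3, 148 and 160.1 CPM in control chimeras. Neither compartment showed overlap, and the folds were -0.74 ± 0.13 and -0.66 ± 0.12 in parenchyma and leptomeninges. Apobec3 shares genomic sequence with Cbx7 on the opposite strand, and no source used here says whether the counting was by strand.

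Gatm had 333, 369, 405 and 379.6 CPM in mutant GFP-negative microglia, against 619.9, 549, 556 and 595 CPM in control ones. The leptomeningeal donor cells had 121, 137, 88.9 and 110.2 CPM in mutant chimeras, against 191, 155, 157 and 213 CPM in control chimeras. Mutant libraries were below control libraries in each compartment. Its fold was -0.63 ± 0.13 in the parenchyma and -0.63 ± 0.13 in the leptomeninges.

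Hps6, Man1a and Id2 differed by genotype in the parenchyma, while their leptomeningeal libraries overlapped. Hps6 had 2.96, 5.33, 9.94 and 4.1 CPM in mutant GFP-negative microglia (3, 5, 10 and 2 UMIs), against 16.7, 24.6, 11.5 and 29.5 CPM in control ones (8, 17, 7 and 17 UMIs). Man1a had 31.6, 18.1, 22.9 and 28.7 CPM in mutant GFP-negative microglia, against 50.1, 40.4, 55.8 and 57.2 CPM in control ones. Both were lower in all 4 mutant libraries than in any control library, with folds of -1.82 ± 0.37 for Hps6 and -1.0 ± 0.21 for Man1a. Id2 had 277, 349, 256 and 263 CPM in mutant GFP-negative microglia, against 189.9, 238, 154 and 180.3 CPM in control ones, a fold of 0.60 ± 0.13 with no overlap. In GFP-negative leptomeningeal macrophages the means were 12 ± 1.58 CPM in mutant and 10.3 ± 2.61 CPM in control chimeras for Hps6, 38.2 ± 4.41 and 38.5 ± 6.82 CPM in mutant and control chimeras for Man1a, and 98.5 ± 8.65 and 104 ± 7.01 CPM in mutant and control chimeras for Id2 (SD, n = 4 each). The folds there were 0.26 ± 0.25 for Hps6, 0.0024 ± 0.15 for Man1a and -0.048 ± 0.12 for Id2.

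All 8 genes had non-overlapping genotypes in GFP-negative microglia, and 5 of 8 in GFP-negative leptomeningeal macrophages. Both counts follow from how the genes were chosen. Over all genes 3.53% did not overlap in GFP-negative microglia and 3.62% in GFP-negative leptomeningeal macrophages, and edgeR called 0.0892% in GFP-negative microglia (11 of 12327) and 0.0487% in GFP-negative leptomeningeal macrophages (6 of 12327). Without control GFP-negative microglia library 2 the count in microglia was 544.

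**Figure D1:**
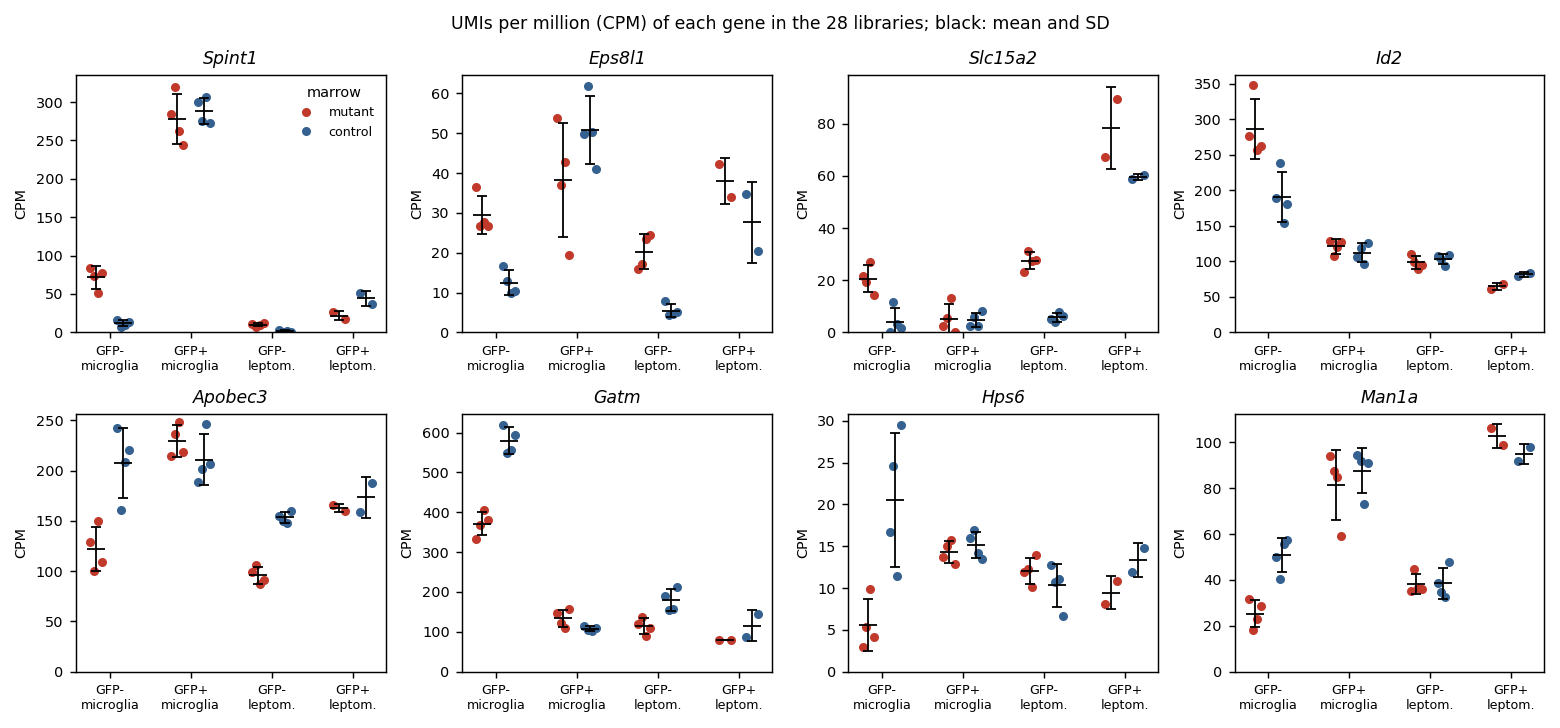
CPM (vertical axes, linear, a scale for each gene) in every library of the 8 groups; points are libraries, mutant in red left of control in blue, and black lines give the mean and SD. Spint1 lay between 50.7 and 83.9 CPM in mutant GFP-negative microglia and between 7.22 and 16.7 CPM in control ones, while GFP-positive microglia of both genotypes lay at or above 244 CPM.

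Marker lists of other cells varied among the GFP-negative microglia libraries. The astrocyte list (8 of 8 genes in the table, none at 0) took 0.160%, 0.231%, 0.281% and 0.179% of UMIs in mutant libraries, against 0.0647%, 0.322%, 0.0641% and 0.106% in control libraries. Neuron markers (8 of 8) took 0.113% to 0.180% in mutant and 0.0332% to 0.147% in control libraries, and oligodendrocyte markers (7 of 8) 0.190% to 0.445% and 0.0717% to 0.400% in mutant and control libraries. Neutrophil markers (8 of 8) took 0.0817% to 0.151% in mutant and 0.107% to 0.843% in control libraries. Monocyte markers (8 of 8, Vcan at 0 in mutant libraries) held 0.0190% to 0.0292% in mutant and 0.0271% to 0.0808% in control libraries. Medians in mutant and control libraries were 0.205% and 0.0852% for astrocyte, 0.130% and 0.0567% for neuron and 0.257% and 0.104% for oligodendrocyte markers. They went the other way for neutrophil (0.0983% and 0.447%) and monocyte markers (0.0279% and 0.0586%). The part of these lists in the values of the 8 genes was not tested. Microglial markers (8 of 8) took 0.557% to 0.669% in mutant and 0.603% to 0.655% in control libraries. Dendritic cell markers (7 of 8) were higher in all mutant libraries, at 0.00923% to 0.0134%, against 0.00572% to 0.00895% in control ones. Ranges overlapped between genotypes for the lists of border macrophages, fibroblasts, B cells (0.0369% to 0.0637% in mutant and 0.0338% to 0.0468% in control libraries), T and NK cells (0.00595% to 0.00894% and 0.00626% to 0.00935% in mutant and control), plasmacytoid dendritic cells (0.222% to 0.311% and 0.219% to 0.279% in mutant and control), endothelium and mural cells (0.00117% to 0.00179% and 0.00156% to 0.00390% in mutant and control) and erythroid cells (3.20e-04% to 0.117% and 3.47e-04% to 0.0311% in mutant and control).

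In GFP-negative leptomeningeal macrophages the neutrophil list took 3.2% to 7.22% of UMIs in mutant and 4.86% to 8.47% in control libraries. Monocyte markers took 0.304% to 0.577% and 0.404% to 0.687%, fibroblast markers (8 of 8) 0.378% to 0.482% and 0.342% to 0.456%, and microglial markers 0.0536% to 0.113% and 0.0562% to 0.114% in mutant and control libraries. Neuron markers (8 of 8, Gad1 at 0 in mutant libraries) were lower in all mutant libraries, at 9.13e-04% to 0.00178%, against 0.00189% to 0.00476% in control ones. The ranges of the other 13 lists overlapped between genotypes. The part of these shares in the members' values was not tested.

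The host cells of the chimeras were tested for the genotype of the marrow. In GFP-positive microglia 0 of 8 members were called by edgeR's quasi-likelihood test with Benjamini-Hochberg adjustment over 12327 genes, of which 0.0649% were called. Of the 8, Gatm alone had an unadjusted p under 0.05, and DESeq2 called 0 of them among its 12 genes. The mutant and control libraries of each member overlapped, where 3.39% of all genes did not. Spint1 had 284, 319.9, 263 and 244 CPM in mutant chimeras, against 300.0, 276, 306 and 272 CPM in control chimeras, and its fold of -0.024 ± 0.13 (adjusted p = 1) had a 95% interval of -0.29 to 0.25. Gatm had 146, 122, 110.4 and 156 CPM in mutant chimeras, against 115, 104, 101 and 109.9 CPM in control chimeras, a fold of 0.35 ± 0.13 (adjusted p = 1). That value has the opposite sign to the fold of Gatm in donor microglia. Eps8l1 had 53.8, 37, 42.7 and 19.5 CPM in mutant chimeras, against 49.9, 61.8, 50.4 and 41 CPM in control chimeras, a fold of -0.36 ± 0.19 (adjusted p = 1). Slc15a2 was low in host microglia of both genotypes, with 6, 11, 20 and 0 UMIs in mutant and 5, 13, 5 and 24 UMIs in control libraries, and the 0 allows up to 1.83 CPM. Its fold of 0.017 ± 0.56 had an interval of -1.14 to 1.18. For Apobec3, Hps6, Man1a and Id2 the folds were 0.16 ± 0.11, -0.048 ± 0.24, -0.073 ± 0.13 and 0.14 ± 0.12. The interval of Hps6 was -0.53 to 0.43 and that of Man1a -0.34 to 0.19.

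In GFP-positive leptomeningeal macrophages, with 2 libraries per genotype, edgeR called 0 of 8 members and 0% of all genes, of which 665 had an unadjusted p under 0.05, while DESeq2 called 10 genes and 0 members. Spint1 had 26.1 and 17.6 CPM in mutant and 50.7 and 37.6 CPM in control chimeras, a fold of -1.03 ± 0.30 (adjusted p = 0.370), opposite in sign to its fold in donor cells of the same compartment. The 8 microglial markers were likewise lower in the mutant host libraries, at 0.318% to 0.379% of UMIs, against 0.489% to 0.729% in control ones. So were dendritic cell (0.0348% to 0.0406% against 0.0426% to 0.0428%) and neuron markers (0.00346% to 0.00432% against 0.00444% to 0.00761%). Higher in mutant ones were border macrophage (1.06% to 1.18% against 0.827% to 0.979%) and fibroblast markers (0.442% to 0.539% against 0.353% to 0.403%). Erythroid markers were also higher (5.02e-04% to 0.0477% against 2.28e-04% to 3.96e-04%). The part of these lists in the Spint1 value was not tested. Gatm had 79.3 and 80.0 CPM in mutant and 88 and 144 CPM in control chimeras, a fold of -0.47 ± 0.21 (adjusted p = 0.841). Eps8l1 had 42.2 and 33.9 CPM in mutant and 34.9 and 20.5 CPM in control chimeras, and Slc15a2 67.3 and 89.5 CPM in mutant and 58.6 and 60.4 CPM in control chimeras. Their folds of 0.45 ± 0.33 and 0.45 ± 0.44 had intervals of -0.21 to 1.12 and -0.46 to 1.37, wide enough to hold both no difference and a difference of over 1 on the log2 scale. Apobec3, Hps6, Man1a and Id2 had folds of -0.041 ± 0.17, -0.40 ± 0.43, 0.16 ± 0.20 and -0.28 ± 0.20. The libraries of Apobec3 and Eps8l1 overlapped between genotypes, and those of the other 6 members did not, with 2 libraries against 2, where 33.9% of all genes did not.

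The genotype effect in host cells was also compared between compartments, leptomeninges minus parenchyma. edgeR called 0 of 8 members and 0% of all genes (603 with an unadjusted p under 0.05, of which 3 were members, and DESeq2 called 0 genes). The 3 members were Spint1 at -1.0 ± 0.33 (adjusted p = 0.791), Gatm at -0.82 ± 0.25 (adjusted p = 0.742) and Eps8l1 at 0.81 ± 0.38 (adjusted p = 0.987).

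The donor genotype fold minus the host genotype fold in microglia was 2.66 ± 0.31 for Spint1, 1.64 ± 0.39 for Eps8l1, 2.17 ± 0.88 for Slc15a2, 0.46 ± 0.18 for Id2, -0.89 ± 0.17 for Apobec3, -0.98 ± 0.18 for Gatm, -1.77 ± 0.44 for Hps6 and -0.93 ± 0.25 for Man1a. In the leptomeninges that difference was 3.91 ± 0.47 for Spint1, 1.49 ± 0.43 for Eps8l1, 1.81 ± 0.60 for Slc15a2, -0.62 ± 0.21 for Apobec3 and -0.16 ± 0.24 for Gatm. For Gatm the host leptomeningeal fold had the same sign as the donor fold, and its difference was 0.21 without control host library 1 and -0.54 without control host library 2. The Slc15a2 difference in microglia ran from 1.74 to 3.56 when each library was left out in turn. These differences contain the contrast that chose the genes and carry no test.

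**Figure D2:**
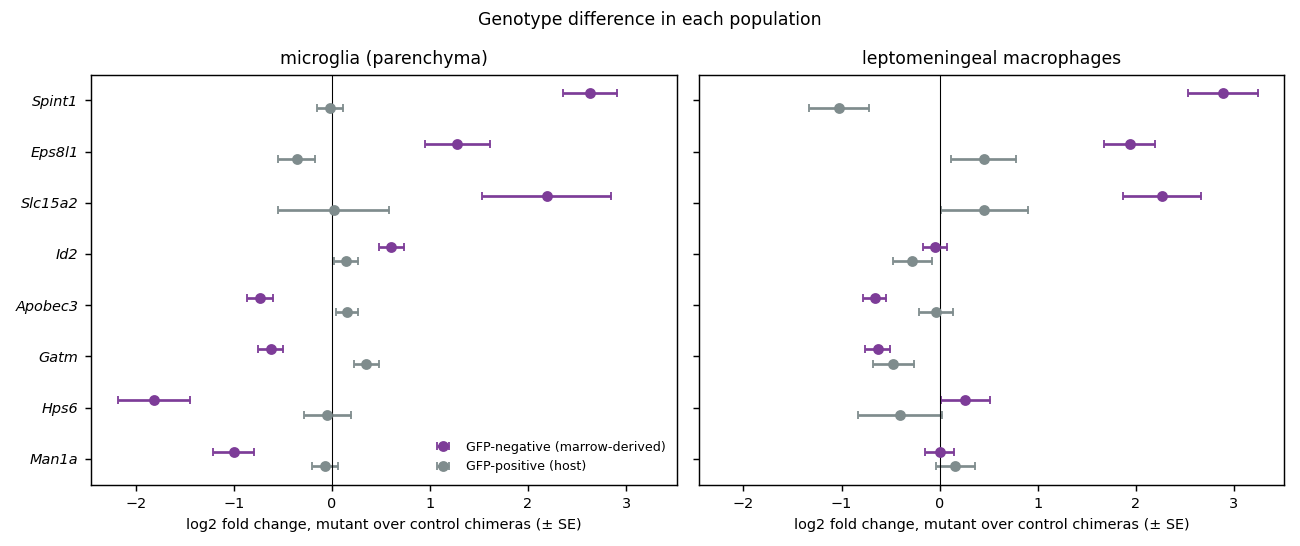
Log2 fold changes of mutant over control chimeras (horizontal axis, points with SE) in GFP-negative (purple) and GFP-positive cells (grey) of the parenchyma and of the leptomeninges. The purple points of Spint1 sit at 2.63 and 2.89, and the grey ones at -0.024 and -1.03; purple points chose the genes and are a description.

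Cell origin was compared as GFP-negative over GFP-positive cells of the same compartment, averaged over genotypes. These averages contain the donor levels that chose the members, so a call can rest on 1 genotype. In microglia 7 of 8 members were called, 3 higher and 4 lower in donor cells, where 60.4% of all genes were called. Gatm was higher at 2.12 ± 0.094 (adjusted p = 6.80e-24), with 372 ± 29.8 and 579.9 ± 33.5 CPM in mutant and control donor cells, against 134 ± 21.3 and 108 ± 6.03 CPM in mutant and control host cells (SD, n = 4 each). Id2 was higher at 1.18 ± 0.088 (adjusted p = 6.05e-16), and its 8 donor libraries lay between 154 and 349 CPM, above the 8 host libraries at 96.5 to 129 CPM. Slc15a2 passed at 1.17 ± 0.50 (adjusted p = 0.0462). Taken by genotype the fold was 2.26 ± 0.50 in mutant and 0.083 ± 0.77 in control chimeras, and it was 0.47 without control donor library 2 (adjusted p = 0.608). The call was also lost without control donor library 3, control host library 1 or 3, any 1 of the 4 mutant donor libraries, or mutant host library 1 or 2 (adjusted p = 0.0553 to 0.0827), with no low-count filter (adjusted p = 0.0589), and with the 4 groups fitted alone (adjusted p = 0.0751).

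Among the genes lower in donor microglia, Spint1 had -3.13 ± 0.14 (adjusted p = 1.66e-23). The fold was -1.80 ± 0.16 in mutant and -4.46 ± 0.23 in control chimeras. Such values by genotype contain the donor levels that chose the genes and carry no test. Man1a was lower at -1.07 ± 0.12 (adjusted p = 1.76e-10), with all 8 donor libraries below all 8 host libraries. Eps8l1 was lower at -1.03 ± 0.19 (adjusted p = 7.35e-06), but at -0.21 ± 0.23 in mutant chimeras alone and -1.85 ± 0.29 in control chimeras alone. Apobec3 was lower at -0.29 ± 0.087 (adjusted p = 0.00371), at -0.74 ± 0.12 in mutant chimeras alone and at 0.16 ± 0.12, of the opposite sign, in control chimeras alone. With the 4 groups fitted alone it missed the threshold (adjusted p = 0.0599). Hps6 was not called at -0.25 ± 0.22 (adjusted p = 0.347), an average over -1.13 ± 0.34 in mutant and 0.64 ± 0.28 in control chimeras. Border macrophage markers took 0.139% to 0.182% and 0.152% to 0.187% of UMIs in mutant and control donor microglia, against 0.00940% to 0.0115% and 0.00766% to 0.00868% in mutant and control host microglia, where donor and host ranges did not overlap. In mutant and control host microglia astrocyte markers took 0.0179% to 0.0201% and 0.0147% to 0.0182%, neuron markers 0.00277% to 0.00345% and 0.00184% to 0.00431%, and oligodendrocyte markers 0.0162% to 0.0194% and 0.0151% to 0.0181%, each below the donor shares given above. Their part in the origin differences was not tested.

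In leptomeningeal macrophages 6 of 8 members were called between donor and host cells, 2 higher and 4 lower in donor cells, where 30.2% of all genes were called. Gatm at 0.81 ± 0.12 (adjusted p = 6.99e-07) and Id2 at 0.71 ± 0.12 (adjusted p = 4.41e-06) were again higher in donor cells. Spint1 at -2.76 ± 0.24 (adjusted p = 8.32e-13), Eps8l1 at -1.39 ± 0.22 (adjusted p = 9.93e-07) and Man1a at -1.13 ± 0.12 (adjusted p = 4.41e-10) were again lower. In mutant chimeras alone Spint1 was at -0.80 ± 0.30 and Eps8l1 at -0.65 ± 0.27, and in control chimeras alone they were at -4.71 ± 0.35 and -2.13 ± 0.33. Slc15a2 was lower at -2.21 ± 0.29 (adjusted p = 1.19e-06), with -1.30 ± 0.37 in mutant and -3.11 ± 0.45 in control chimeras. Apobec3 was not called at -0.24 ± 0.10 (adjusted p = 0.0824), with -0.55 ± 0.15 in mutant and 0.074 ± 0.15 in control chimeras, and neither was Hps6 at 0.22 ± 0.25 (adjusted p = 0.549). Neutrophil markers took 0.285% to 0.398% and 0.169% to 0.514% of UMIs in mutant and control host leptomeningeal cells, far less than the several percent of donor cells given above, and their part in these folds was not tested.

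Compartment was compared as leptomeninges over parenchyma within each origin. Among donor cells 5 of 8 members were called, 1 higher and 4 lower in the leptomeninges, against 62% of all genes. Spint1 at -2.64 ± 0.27 (adjusted p = 8.48e-12), Gatm at -1.46 ± 0.092 (adjusted p = 2.96e-18) and Id2 at -0.97 ± 0.088 (adjusted p = 4.15e-13) were lower in leptomeningeal donor cells, with the same sign in both genotypes taken alone. Eps8l1 was lower at -0.61 ± 0.23 (adjusted p = 0.0175), but at -0.28 ± 0.24 in mutant chimeras alone. Man1a, whose level in these microglia chose it, was higher on average at 0.35 ± 0.13 (adjusted p = 0.0172). It was at 0.85 ± 0.19 in mutant chimeras and, of the opposite sign, at -0.16 ± 0.17 in control chimeras. It lost its call with DESeq2 (adjusted p = 0.0576), and with edgeR without mutant GFP-negative microglia library 2 (fold 0.25, adjusted p = 0.0991) or 3 (0.29, adjusted p = 0.0667), mutant leptomeningeal library 2 (0.28, adjusted p = 0.0608) or control GFP-negative microglia library 2 (0.27, adjusted p = 0.0817). Hps6, whose level in these microglia chose it, was at 1.31 ± 0.34 in mutant and -0.77 ± 0.29 in control chimeras, and its average of 0.27 ± 0.22 was not called. Slc15a2 was at 0.58 ± 0.41 (adjusted p = 0.229), and at 1.21 (adjusted p = 0.0491) without control GFP-negative microglia library 2. Apobec3 was at -0.15 ± 0.089 (adjusted p = 0.131). It passed with DESeq2 (adjusted p = 0.0292) and with DESeq2 size factors in edgeR (-0.20, adjusted p = 0.0395). Its call was also gained without control microglia library 2, mutant microglia library 2 or mutant leptomeningeal library 2 (-0.24, -0.23 and -0.21).

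Among host cells 4 of 8 members were called, 2 higher and 2 lower in the leptomeninges, against 56.7% of all genes. Slc15a2 was higher in leptomeningeal host cells at 3.96 ± 0.32 (adjusted p = 6.75e-11), with 67.3 and 89.5 CPM in mutant and 58.6 and 60.4 CPM in control leptomeningeal cells, and the 8 host microglia libraries at 0 to 13.1 CPM. Spint1 was lower at -3.01 ± 0.16 (adjusted p = 5.68e-21), and its 4 leptomeningeal host libraries reached at most 50.7 CPM, against at least 244 CPM in the 8 host microglia libraries. The microglial markers, at the leptomeningeal shares given above, took 2.47% to 3.13% and 2.92% to 3.01% of UMIs in mutant and control host microglia, and their part in the compartment differences was not tested. Man1a was higher at 0.40 ± 0.12 (adjusted p = 0.00377) and Id2 lower at -0.49 ± 0.12 (adjusted p = 3.97e-04). Both kept those signs in control chimeras alone, where they were not called (0.29 ± 0.17 with adjusted p = 0.182, and -0.28 ± 0.17 with adjusted p = 0.172). Gatm was at -0.15 ± 0.12 (adjusted p = 0.312), but at -0.56 ± 0.18 (adjusted p = 0.00839) in mutant chimeras alone and at -0.35 (adjusted p = 0.0284) without control leptomeningeal host library 2. Not called either were Eps8l1 at -0.25 ± 0.19 (adjusted p = 0.268), Apobec3 at -0.21 ± 0.10 (adjusted p = 0.0853) and Hps6 at -0.20 ± 0.25 (adjusted p = 0.514). With no low-count filter Apobec3 passed (-0.25, adjusted p = 0.0373 by edgeR).

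The origin difference itself differed between compartments for 3 of 8 members, all lower in the leptomeninges, where 42.3% of all genes were called. Slc15a2 was at -3.38 ± 0.65 (adjusted p = 1.43e-04), with -3.56 ± 0.62 in mutant and -3.20 ± 1.02 in control chimeras. Gatm had -1.31 ± 0.15 (adjusted p = 1.52e-09) and Id2 -0.48 ± 0.15 (adjusted p = 0.00751). The value of Id2 was -0.59 ± 0.21 in mutant and -0.36 ± 0.21 in control chimeras. Spint1 was at 0.37 ± 0.35 (adjusted p = 0.417), with 1.0 ± 0.34 in mutant and -0.25 ± 0.44 in control chimeras. Hps6, not called on average at 0.47 ± 0.33, was at 1.69 ± 0.49 in mutant and -0.75 ± 0.45 in control chimeras, values that contain the donor microglia levels that chose it. Eps8l1 was at -0.36 ± 0.29, Apobec3 at 0.054 ± 0.14 and Man1a at -0.057 ± 0.18, with intervals of -0.95 to 0.23, -0.22 to 0.33 and -0.42 to 0.30.

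**Figure D3:**
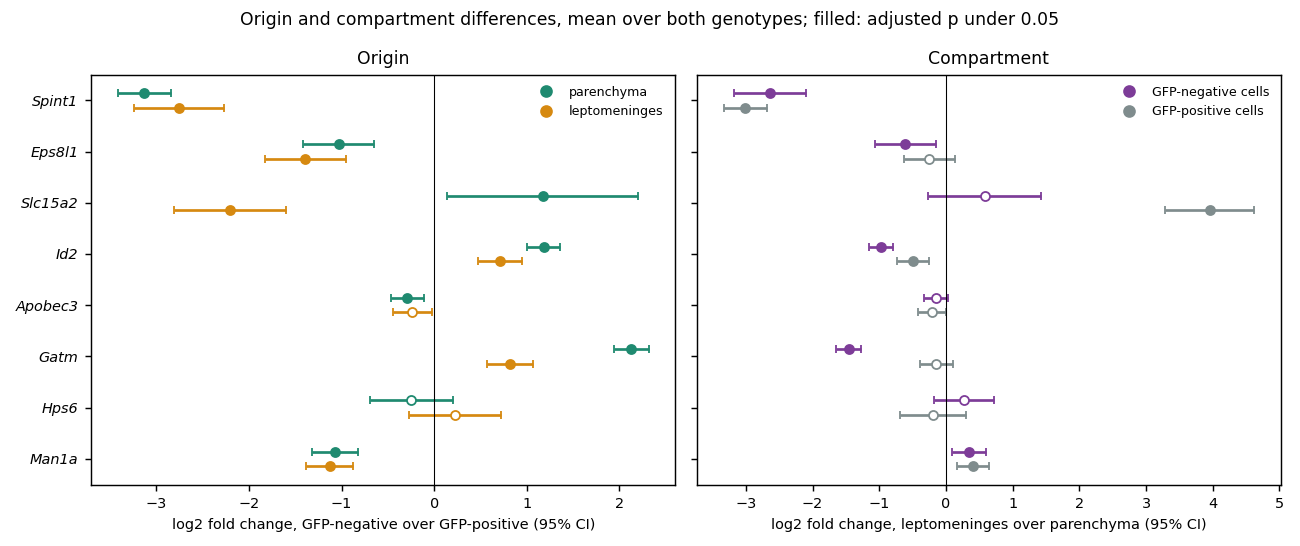
Log2 fold changes with 95% intervals, of GFP-negative over GFP-positive cells (left) and of leptomeninges over parenchyma (right), averaged over genotypes; filled points had an adjusted p under 0.05. Slc15a2 sits at 1.17 in the parenchyma and -2.21 in the leptomeninges on the left, and at 3.96 in host cells on the right.

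Relative to the host cells of their compartment, mutant donor cells reached more of the host level of Spint1 and Eps8l1 than control donor cells did, and 3 single markers of microglia are set beside them. Mean Spint1 in mutant GFP-negative microglia was 25.3% of the mean of the 8 GFP-positive libraries, against 4.2% in control ones. For Eps8l1 the shares were 66% in mutant and 28% in control chimeras. Mutant donor microglia held more than the host level of Slc15a2 (411%, against 82.9% in control ones) and Id2 (246%, against 164%). The Slc15a2 shares rest on a host mean of only 5.0 CPM, and control donor libraries ran from 0% to 231% on 0 to 8 UMIs. Mutant donor microglia held a smaller share than control ones for Hps6 (37.9% against 140%), Man1a (30.0% against 60.2%) and Gatm (308% against 481%). Sall1 had 3.98% in mutant and 6.24% in control chimeras, P2ry12, a purinergic receptor of microglia, 9.13% and 11.4% in mutant and control chimeras, and Tmem119, a membrane protein of microglia, 20.4% and 22.4% in mutant and control chimeras. The libraries of Sall1, P2ry12 and Tmem119 overlapped between genotypes, and the microglial list of 8 genes had a median of 0.653% of UMIs in mutant and 0.629% in control donor microglia. The border macrophage gene Mrc1 did not overlap there, at 899% to 1085% of the host mean in mutant and 1154% to 1441% in control chimeras. Pf4 did, at 1068% to 1618% and 902% to 1704% in mutant and control chimeras. Of all genes 3.53% did not overlap in these cells. In the leptomeninges the shares of the 4 GFP-positive libraries were 30.8% in mutant and 4.49% in control chimeras for Spint1, 61.7% and 16.7% in mutant and control chimeras for Eps8l1, and 39.8% and 8.46% in mutant and control chimeras for Slc15a2. The host mean pools both genotypes, whose means were 21.9 CPM in mutant and 44.2 CPM in control host cells for Spint1. For Slc15a2 they were 78.4 and 59.5 CPM in mutant and control host cells, and neither gene's host libraries overlapped. Pf4 and Mrc1, genes of border macrophages, were at 41.7% and 34.7% in mutant and 39.3% and 35.9% in control chimeras. For Apobec3 mutant donor cells held 55.4% of the host level in the parenchyma and 56.9% in the leptomeninges, against 94.3% and 91.2% in control donor cells of parenchyma and leptomeninges. All these shares use CPM without the library scaling (TMM) of the folds, so shares and folds can differ in direction. In control chimeras alone the Apobec3 fold of donor over host cells was 0.16 ± 0.12 in the parenchyma and 0.074 ± 0.15 in the leptomeninges, both above 0. These shares repeat the contrast that chose the genes and have no test.

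**Figure D4:**
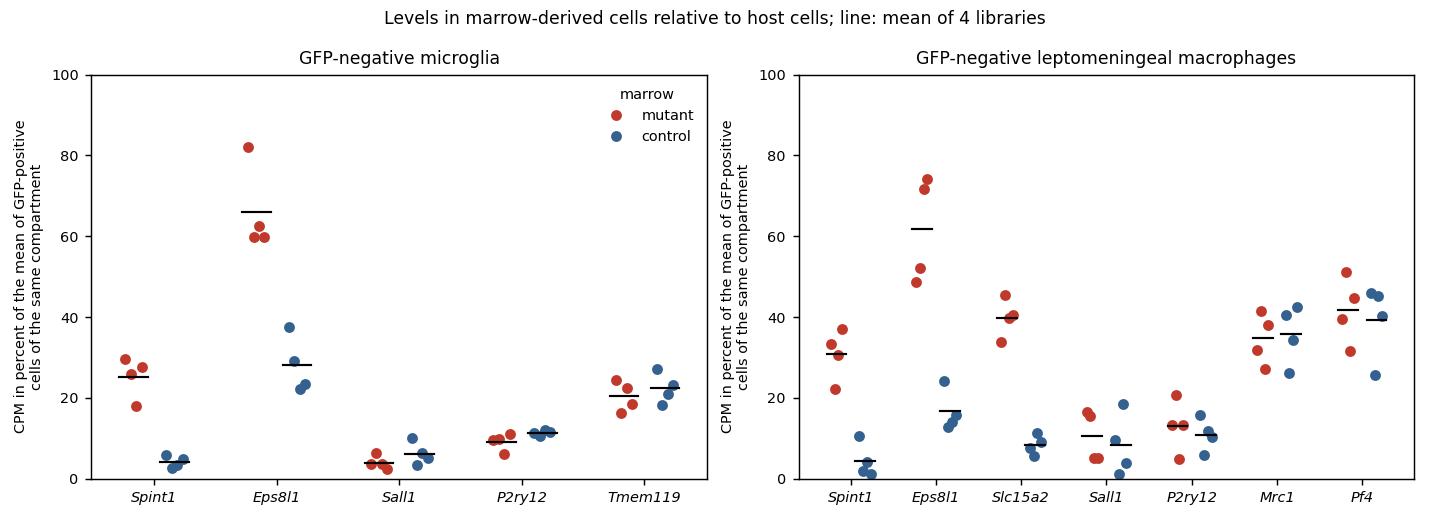
Level of each gene in GFP-negative libraries as percent of the mean CPM of GFP-positive cells of the same compartment (vertical axis); points are libraries, mutant in red left of control in blue, and lines are means of 4. In microglia Spint1 averages 25.3% in mutant and 4.2% in control chimeras, and Sall1 3.98% and 6.24%. Of the members only Spint1 and Eps8l1 are drawn, with Slc15a2 in the leptomeninges.

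The order of group means differed from gene to gene. Spint1 was highest in host microglia, and the mutant (278 CPM) and control host groups (289 CPM) overlapped. Mutant donor microglia followed at 71.5 CPM, and control donor leptomeningeal cells were lowest at 1.48 CPM. Man1a was highest in host leptomeningeal cells (103 CPM in mutant and 94.9 CPM in control chimeras, n = 2 each), and mutant donor microglia were lowest at 25.3 CPM. For Gatm and Id2 the donor microglia of both genotypes stood above the other 6 groups. Gatm had its lowest mean in mutant host leptomeningeal cells at 79.7 CPM, as had Id2 at 64.9 CPM. Neighbouring groups of Hps6 overlapped at every step of the order, which ran between 5.58 CPM in mutant donor microglia and 20.6 CPM in control ones. The same was true of Apobec3, between 95.7 CPM in mutant donor leptomeningeal cells and 229.6 CPM in mutant host microglia.

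Other genes of the 8 processes were counted from lists written with earlier results of these data known. Of 146 listed genes that are not members 117 were tested, and edgeR called 0 in GFP-negative microglia (9 with an unadjusted p under 0.05, DESeq2 0) and 0 in GFP-negative leptomeningeal macrophages (4 with an unadjusted p under 0.05, DESeq2 0) between genotypes. In GFP-positive cells the counts were 0 in microglia and 0 in leptomeningeal macrophages (1 and 7 with an unadjusted p under 0.05, DESeq2 0 in each). Of all genes edgeR called 0.0892% and 0.0487% in GFP-negative microglia and leptomeningeal macrophages, and 0.0649% and 0% in GFP-positive ones. An unadjusted p under 0.05 was held by 10.2% and 4.75% of all genes in GFP-negative cells and by 3.76% and 5.39% in GFP-positive cells. With so few genes called, a count of 0 is no result about the lists. By origin 34 of the 117 were higher and 42 lower in donor microglia, and 22 higher and 31 lower in donor leptomeningeal macrophages. That is 65% and 45.3% of the listed genes called in microglia and leptomeningeal macrophages, against 60.4% and 30.2% of all genes. Of all genes 33.1% were called higher and 27.3% lower in donor microglia, and 16.9% higher and 13.3% lower in donor leptomeningeal macrophages, shares against which the counts of each list stand.

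Most other genes of the N-glycan trimming list were, like Man1a, lower in donor microglia. Of 19 other genes 16 were lower and 1 higher in donor than in host microglia, where 27.3% of all genes were lower and 33.1% higher, with a median fold of -0.72, against 0.04 over all genes. Edem1 and Edem2, which send misfolded glycoproteins to degradation, had -1.75 ± 0.11 (adjusted p = 2.36e-18) and -1.52 ± 0.11 (adjusted p = 5.14e-17), and Mgat1, which starts complex glycans, -1.33 ± 0.095 (adjusted p = 1.06e-16). In leptomeningeal donor cells 7 of 19 were lower and 1 higher, with a median of -0.29, against 0.02 over all genes, among them Man1c1 at -0.87 ± 0.14 (adjusted p = 3.84e-06).

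In the list of Id2, 6 of 17 other genes were higher and 3 lower in donor microglia, against 60.4% of all genes called in either direction, with a median of 0.21. The relatives of Id2 were the genes with the smallest p there: Id3 at 4.87 ± 0.25 (adjusted p = 1.39e-19), Id1 at 3.83 ± 0.29 (adjusted p = 3.79e-15) and Id4 at 6.31 ± 0.71 (adjusted p = 2.21e-10). Astrocyte markers took 0.160% to 0.281% and 0.0641% to 0.322% of UMIs in mutant and control donor microglia. These lay above the host shares given above, and their part in the Id folds was not tested. In donor leptomeningeal cells 6 genes of the list were higher and 3 lower, with Id1 at 2.60 ± 0.38 (adjusted p = 5.19e-07). In the protease inhibitor list of Spint1, 7 of 13 were higher and 3 lower in donor microglia, with a median of 0.79. Spint2, the nearest relative of Spint1, went the other way at 5.86 ± 0.28 (adjusted p = 1.01e-22), and Cst3, cystatin C, was lower at -1.29 ± 0.091 (adjusted p = 6.64e-17). In donor leptomeningeal cells 3 were higher and 7 lower, with a median of -0.48, and Cst3 was at -1.02 ± 0.11 (adjusted p = 1.14e-10).

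In the creatine list of Gatm, 4 of 9 were higher and 2 lower in donor microglia, led by Ass1, which makes argininosuccinate, at 2.34 ± 0.25 (adjusted p = 3.83e-11), and the mitochondrial creatine kinase Ckmt1 at 4.84 ± 0.55 (adjusted p = 1.71e-10). Neuron markers took 0.113% to 0.180% and 0.0332% to 0.147% of UMIs in mutant and control donor microglia, above the host shares given above, and their part in the list folds was not tested. Ass1 was the 1 gene of this list called in donor leptomeningeal cells, at 1.58 ± 0.24 (adjusted p = 4.49e-07). Of 15 genes listed with Apobec3, 5 were higher and 3 lower in donor microglia, among them Apobec1 at 2.23 ± 0.13 (adjusted p = 2.48e-16), and again 5 higher and 3 lower in donor leptomeningeal cells. Of 10 genes listed with Slc15a2, 2 were higher and 5 lower in donor microglia, where the related transporter Slc15a3 was at -1.03 ± 0.089 (adjusted p = 7.73e-14), and 1 higher and 5 lower in donor leptomeningeal cells. The 17 genes listed with Eps8l1 had 5 higher and 6 lower in donor microglia, where the WAVE subunits Wasf2 and Cyfip1 were lower at -1.38 ± 0.087 (adjusted p = 2.50e-18) and -1.35 ± 0.090 (adjusted p = 1.54e-17), and 2 higher and 3 lower in donor leptomeningeal cells. The 17 listed with Hps6 had 4 higher and 4 lower in donor microglia and 3 higher and 3 lower in donor leptomeningeal cells, with Hps4, a subunit of BLOC-3, at -0.76 ± 0.095 (adjusted p = 1.74e-09) and -0.93 ± 0.12 (adjusted p = 3.85e-08) in parenchyma and leptomeninges.

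The genes lie on 7 chromosomes. Spint1 (chromosome 2, 119237362 to 119249527, plus strand) and Gatm (chromosome 2, 122594467 to 122611303, minus strand) start 3.37 Mb apart on mm10 and differed by genotype in opposite directions. Of 53 tested genes between them edgeR called 0 in either donor genotype comparison (5 and 6 with an unadjusted p under 0.05 in microglia and leptomeningeal macrophages, DESeq2 0 in each). In these comparisons edgeR called 0.0892% and 0.0487% of all genes, and 10.2% and 4.75% had an unadjusted p under 0.05. Of 186 tested genes that start within 1 Mb of a member's start edgeR called 0 in GFP-negative microglia (25 with an unadjusted p under 0.05, against 10.2% of all genes) and 0 in leptomeningeal macrophages (9, against 4.75% of all genes), while DESeq2 called 1 in microglia and 0 in leptomeningeal macrophages. That gene, named after its values were seen, was Rpl28, a ribosomal protein gene near Eps8l1, at 0.33 ± 0.10 by edgeR (adjusted p = 0.217). The positions of the others are chromosome 7, 4460674 to 4480487 (Eps8l1, plus), chromosome 16, 36750177 to 36784962 (Slc15a2, minus), chromosome 15, 79891659 to 79915906 (Apobec3, plus), chromosome 19, 46003508 to 46006173 (Hps6, plus), chromosome 10, 53904785 to 54076609 (Man1a, minus) and chromosome 12, 25093799 to 25097140 (Id2, minus).

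**Figure D5:**
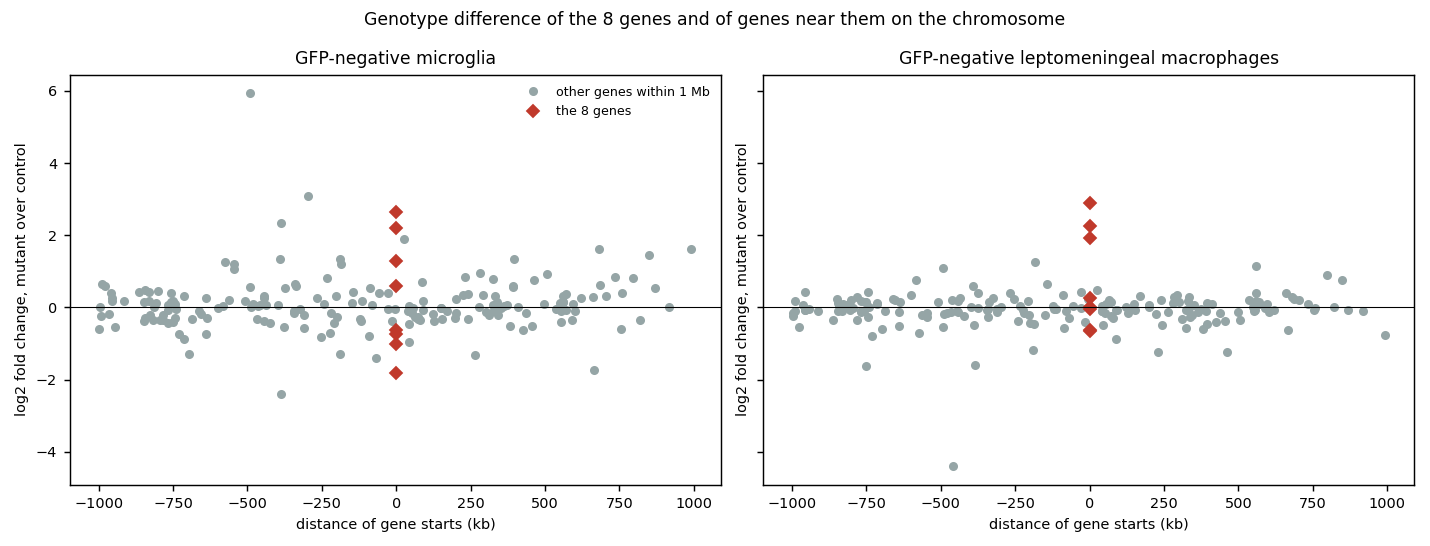
Log2 fold of mutant over control chimeras (vertical axis) in GFP-negative microglia and GFP-negative leptomeningeal macrophages against the distance between gene starts in kb (horizontal axis), for 186 tested genes within 1 Mb (grey) and the 8 genes themselves (red, at 0). The Spint1 points lie at 2.63 and 2.89; grey points far from 0 were not called by edgeR.

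The genes most like each member were found by Pearson's r of log2 CPM over the 28 libraries. The libraries differ in cell type, origin and depth and include the donor ones whose values chose the members, so r is a description. The gene most like Eps8l1 was another member, in the list Spint1 (0.833), Primpol (0.769) and Gm48611 (0.766). For Spint1 they were Eef2k (0.926), Jam2 (0.925) and Ecscr (0.924). Among the genes most like Gatm were Cox8b (0.922) and Ptprf (0.921), and Id2 was most like Ndufb6 (0.913), AW047730 (0.913) and Atp5g3 (0.910). Man1a ran with Atp6ap1 (0.914), Bank1 (0.882) and Pik3cg (0.878), and Slc15a2 with Smim10l1 (0.828), Efemp2 (0.827) and Colec12 (0.806). The highest r values were lower for Apobec3, with 1600012H06Rik (0.751), Pprc1 (0.742) and Ighd (0.706), and for Hps6, with Cdk12 (0.677), Ctr9 (0.658) and Mtif3 (0.651).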

How the data were processed

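MARS-seq libraries of sorted mouse brain macrophages were analysed from 1 deposited table in which every library has raw, normalized and rlog values. Per the file headers, the raw columns hold the deposited counts, UMIs per gene, on mm10 per the submitters' processing notes; no source used here names the aligner. The authors' normalized columns hold signal, counts divided by a size factor, and the deposited rlog columns hold log2 values; neither was used in tests. CPM was computed as UMIs over the library total (479077 to 3066506 UMIs). Counts of genes kept by filterByExpr (12327 of 14617) were tested with edgeR 4.0.16 (R 4.3.3, TMM, robust quasi-likelihood, a group-means fit of the 28 libraries), adjusted by Benjamini-Hochberg, threshold 0.05. The pipeline was tested on simulated data.

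The members, the 8 pathway lists and 14 marker lists were chosen with earlier results of these data known. Named beside the 8 members are at most 3 called genes per list and comparison with the smallest adjusted p, the 3 most alike genes per member, Dnmt3a, and single markers; 1 gene under this rule is not reported here. Promoter sequences are from RefSeq GRCm38.p6 and positions from GENCODE M21. Alternatives were DESeq2 size factors, no low-count filter, DESeq2 1.42.0 (Wald test), the groups of a comparison fitted alone, a replicate block, each genotype alone, TMM-scaled CPM, and leaving out each library in turn. Replicate libraries differed by more than counting noise and were each counted once.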

Additional observations from a re-analysis of the deposited data

Results flagged for a closer look

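A total of 48 sets of 4 libraries (8 genes in 6 groups) were screened for a library far from the other 3, of which chance flags about 1 in 20. In mutant GFP-negative microglia library 1 had 36.5 CPM of Eps8l1, above the others at 26.7 to 27.8. In mutant GFP-negative leptomeningeal macrophages library 2 had 44.7 CPM of Man1a, above the others at 35.2 to 36.5. In control GFP-positive microglia library 3 had 73.0 CPM of Man1a, below the others at 90.9 to 94.5.

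The difference between donor and host cells was unequal between leptomeninges and parenchyma, by the test of the difference itself, for Gatm (-1.31), Slc15a2 (-3.38) and Id2 (-0.48), on the log2 scale.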

How the results depend on the processing

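Over 1296 refits of 64 tested results of the members, 1223 kept direction and side of the threshold, 27 lost and 15 gained a call and 31 changed sign; of 510 refits of 32 described folds 497 kept their sign and moved by less than 1 SD between libraries, and of 64 group means of CPM 19 moved by over 1 SD when library sizes were scaled by TMM. These counts include the fits in mutant or control chimeras alone. Such fits with donor cells contain the levels that chose the genes, so their gains and losses of a call are a description. The causes were not tested. Changes of sign in mutant chimeras alone were Eps8l1 in leptomeningeal over parenchymal host cells (0.16) and Man1a in the origin difference between compartments (0.33). In control chimeras alone they were Apobec3 0.16 and Hps6 0.64 in donor minus host microglia, Apobec3 0.074 and Hps6 -0.11 in leptomeningeal macrophages, Hps6 -0.77 and Man1a -0.16 in leptomeningeal over parenchymal donor cells, Gatm 0.26 in host cells, and Spint1 -0.25, Apobec3 -0.082 and Hps6 -0.75 in the origin difference between compartments. That difference was also -0.026 for Apobec3 with DESeq2 size factors, -0.026 with DESeq2's Wald test, and 0.0023 for Man1a with no filter. Leaving out each library in turn, it ran from -0.12 to 0.065 for Man1a and -0.067 to 0.57 for Spint1. Such ranges crossed 0 in host microglia by genotype for Spint1 (-0.10 to 0.0087), Slc15a2 (-0.80 to 0.44), Hps6 (-0.13 to 0.013) and Man1a (-0.16 to 0.027), in host leptomeningeal cells for Apobec3 (-0.18 to 0.086), in donor leptomeningeal cells for Man1a (-0.056 to 0.11), in the host genotype difference between compartments for Slc15a2 (-0.0060 to 1.26), and in the donor minus host genotype difference in the leptomeninges for Gatm (-0.54 to 0.21).

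Counts of called genes that moved by over 1.5 times were, for genotype in donor microglia (11), 17 with no filter, 4 with those groups alone, 51 with DESeq2 and 3 to 544 with a library left out (of the control libraries, leaving out 1 gave 3, leaving out 2 gave 544 and leaving out 4 gave 6; of the mutant ones, leaving out 2 gave 7 and leaving out 4 gave 20). For genotype in host microglia (8) they were 0 with those groups alone and 0 to 11 with a library left out, the 0 arising when control 1, control 2, mutant 2, mutant 3 or mutant 4 was left out. For genotype in host leptomeningeal cells (0) they were 3 with DESeq2 size factors, 2 with no filter, 4 with the replicate block, 17 with those groups alone, 10 with DESeq2 and 1 to 5 with a library left out. The difference of host genotype effects between compartments (0) had 6 with its groups alone and 0 to 3 with a library left out. Donor minus host leptomeningeal cells (3719) had 2185 in mutant chimeras alone, and the origin difference between compartments (5209) 3143 in control chimeras alone. Libraries with the same replicate number did not deviate together. With the replicate number as a block, 13 genes were called in donor microglia and 8 in donor leptomeningeal cells by genotype, and the fit with the block within genotype ended the call of Slc15a2 in donor minus host microglia (1.18, adjusted p = 0.0554). Depth limits Slc15a2, Hps6, Spint1 and Eps8l1 most, where libraries of a group held under 10 UMIs.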
